A study of Mus musculus with 135 samples.

Results

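The comparison asks how the RNA of single ovulated mouse oocytes differs when Tet1 is missing, in young females. Its members are the samples titled Young_Tet1-/- and Young_WT that have a count column of their own, 53 oocytes of the 135 samples in the labels. Knockout oocytes numbered 15 and wild-type (WT) oocytes 38. All came from females of 2 to 4 months on a C57BL6/129 background and were single metaphase II oocytes. Knockouts carried Tet1-/-, and WT animals no named allele. The construction of the allele is not given in the sources used here. Oocytes whose titles share an identifier form a set, and the set was taken as the replicate. Which animal a set came from is not stated, so p-values measure only a spread between sets, which may be technical. Part or all of that spread came from sets of other groups. Sets named with a T (the T series) were 1 knockout set, T146, and 3 WT sets, T148, T211 and T231, with 8 oocytes each. Numbered sets were Young_Tet1-/-_201 with 7 oocytes (the numbered knockout set) and Young_WT__246 with 14 (the numbered WT set). With 1 set against 1, the spread behind the numbered p-values came only from the other sets in the fit. The 2 series were deposited in separate count tables and share no oocyte, so each gives its own comparison of knockout with WT. Series and count table coincide and cannot be told apart.

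TET1 belongs to a family of dioxygenases that oxidise 5-methylcytosine, the methylated base of CpG dinucleotides, and TET3 is the family member known as the abundant maternal form in the oocyte. In female germ cells TET1 is known for demethylating and helping to switch on meiotic genes and for resetting imprinted regions before birth. A metaphase II oocyte is transcriptionally silent and holds RNA stored during growth.

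Libraries held between 2354503 and 12472307 gene counts per oocyte, with a median of 4165956. Within sets, none of 224 oocyte pairs was identical and the chi-square per gene of their counts was at least 4.92. The oocyte genes Zp1, Zp2, Zp3, Gdf9, Bmp15, Mos, Nlrp5, Ooep, Padi6 and Npm2 were present in all 6 sets, and their sum ranged from 10060 to 23690 CPM (counts scaled to a common library size) in WT oocytes and from 11190 to 22850 in knockout oocytes. The 28 cumulus and granulosa markers summed to 22.7 to 102 CPM in WT and 27.8 to 80.4 in knockout, with 20 and 19 of them counted at all. Cyp19a1 stood at 23.8 to 54.3 CPM in the 6 sets, Cyp11a1 at 0.168 to 2.09 and Star at 0.451 to 1.12. Fshr reached 0.22 and Inhba 0.17, while Amh, Fst, Inha and Foxl2 did not exceed 0.0679. The 7 of the 28 markers that were tested had median log2 changes of 0.68 in the T series and 0.26 in the numbered one. Of these, 3 were at least 2-fold higher in T146 and 0 lower, and 1, Ptgs2, was at least 2-fold higher in both series. The part of other cells in the results was not tested. The 16 macrophage and leukocyte markers summed to 20.9 to 51.4 and 18.9 to 42.6 CPM (13 and 15 counted), the 7 red blood cell markers to at most 1.43 and 0.731 (3 and 3), and the 8 oviduct markers to 136.7 to 506.8 and 140.0 to 284.7 (6 and 6). In the oviduct list Cdh1 gave 118.6 to 248.3 CPM per set and Epcam 2.46 to 45.4 (45.4 in the numbered WT set and 9.69 in the numbered knockout set), while Pax8 and Foxj1 were at most 0.0559. Single oocytes stood apart within 2 sets. Oocyte Young_Tet1-/-_201_8 lay at least 4-fold outside the range of the other 6 oocytes of its set at 19 of 6923 genes with a mean of 10 CPM or more, against 0 to 6 genes for every other oocyte in its own set. In WT oocytes Young_WT__246_10, Young_WT__246_11 and Young_WT__246_15, ribosomal protein genes took 0.383%, 0.758% and 0.464% of the counts, against at most 0.221% in the other oocytes.

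Among all genes, Tet1 fell in the knockout, while Pnpla3 and the gene model Gm49513, which shares exons with it, rose. These 3 genes were the calls of the fit over both series (edgeR quasi-likelihood test, adjusted p under 0.05, 0.0208% of 14418 genes tested, 691 at an unadjusted p under 0.05). None of the 3 was called over both series with the 6 young sets alone, without the other groups that informed the spread. Within the T series 7 genes were called (0.0486%, 455 unadjusted) and within the numbered series 8 (0.0555%, 998 unadjusted). Pnpla3, Gm49513 and Pxdn were called in both series, Pxdn in opposite directions. The 250 bases upstream of the RefSeq start of Pnpla3 are shown because this gene passed in each series, although 1 oocyte carried the numbered call. CpG dinucleotides, the sites at which TET enzymes act, are in capitals (RefSeq, GRCm38.p6, plus strand, chr15:84167566-84167815).
Pnpla3: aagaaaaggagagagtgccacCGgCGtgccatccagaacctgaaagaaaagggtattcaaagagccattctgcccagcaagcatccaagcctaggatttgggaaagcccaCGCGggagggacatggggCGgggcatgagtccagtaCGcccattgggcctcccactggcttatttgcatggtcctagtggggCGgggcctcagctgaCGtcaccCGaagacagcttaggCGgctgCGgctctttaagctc
The stretch holds 11 CpG, and 43.7% of 20499 RefSeq promoters hold at least as many in the same window. DNA methylation was not analysed here.

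Tet1 itself (chromosome 10, 62804570 to 62908996, mm10) was nearly uncounted in both knockout sets. In T146, 2 of 8 oocytes held a Tet1 count, 2 counts in all, against 245 counts in the 3 T-named WT sets. That is 1.09% of the WT level (95% exact counting interval 0.131% to 3.97%). In the numbered knockout set no count was seen in 7 oocytes against 250 counts in 14 oocytes of the numbered WT set. The 95% exact counting interval there was 0% to 3.09% of the WT level. WT sets T148, T211, T231 and the numbered WT set stood at 1.79, 4.48, 2.60 and 3.41 CPM. Tet1 was scarce in WT oocytes too, and 1 of 38 had no count, so knockout and WT oocytes overlapped in the T series and not in the numbered one. The fit over both series called the fall (log2 change -6.96, SE 0.78, adjusted p = 0.0136), while neither series alone did (adjusted p = 0.0973 and 0.0628). The call over both series was also lost without set T146, the numbered knockout set or the numbered WT set, and with the 6 young sets alone.

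The other TET genes did not pass in either series. Tet3 stood at 624 CPM in T146 against 643, 666 and 615 in T148, T211 and T231, and at 617 in the numbered knockout set against 698 in the numbered WT set (log2 change over both series -0.09, SE 0.18, adjusted p = 0.974). Single oocytes ran from 507 to 744 CPM in the knockout sets and from 473 to 872 in WT, with wide overlap. Tet2 stood at 1.92 CPM in T146 against 2.22, 2.59 and 3.12, and at 1.54 in the numbered knockout set against 1.55 in the numbered WT set (log2 change -0.28, SE 0.39, adjusted p = 0.973).

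**Figure D1:**
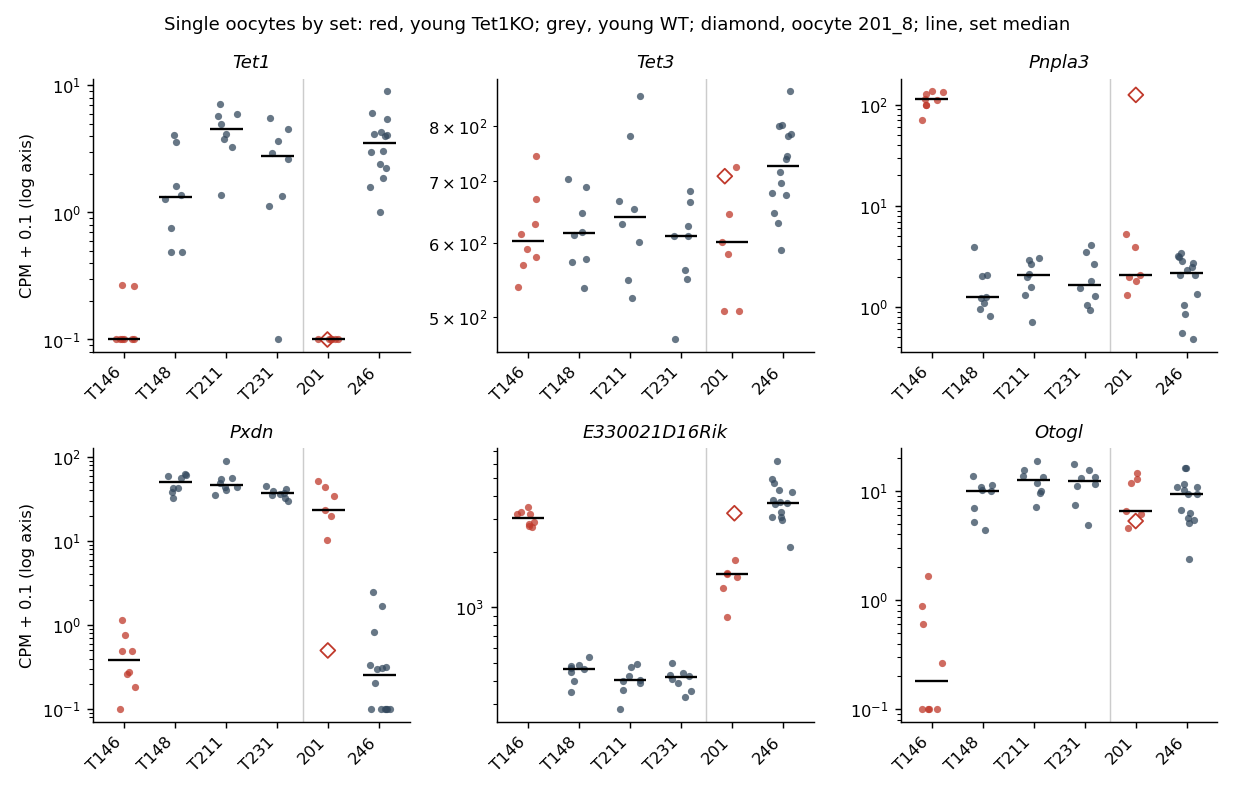
CPM of single oocytes (each point 1 oocyte, 0.1 added, log axis) by set, for Tet1, Tet3 and 4 genes called in a series. Black lines are set medians and the diamond is oocyte Young_Tet1-/-_201_8. It stands away from its own set for Pnpla3, at the level of T146, and for Pxdn, at the level of T146 and of the numbered WT set.

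Pnpla3, a lipid droplet acyl hydrolase (chromosome 15, 84167837 to 84187236), rose in T146 as a whole. Its 8 oocytes ran from 71.2 through a median of 113 to 137 CPM, and the 24 T-named WT oocytes from 0.611 through 1.58 to 4.04, with no overlap. The T-series log2 change was 5.97 (SE 0.25, adjusted p = 8.5e-06). In the numbered knockout set the rise was carried by 1 oocyte. Oocyte Young_Tet1-/-_201_8 stood at 125 CPM and the other 6 between 1.21 and 5.17, beside 0.378 to 3.30 in the numbered WT set. The numbered-series log2 change of 3.38 (SE 0.34, adjusted p = 0.0137) became 0.35 (SE 0.33, adjusted p = 0.875) without Young_Tet1-/-_201_8, and the call over both series was lost as well (log2 change 4.46, SE 0.88, adjusted p = 0.5). Gm49513 (84181914 to 84195881) followed the same oocytes, at 38.5 to 72.3 CPM in T146 and 63.96 in Young_Tet1-/-_201_8 against 2.96 or less in the other oocytes of the numbered knockout set, and its reads cannot be told apart from those of Pnpla3. Its log2 change was 5.15 in the T series and 3.17 in the numbered one, the latter falling to 0.23 without Young_Tet1-/-_201_8 (adjusted p = 0.943).

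Pxdn, peroxidasin, which crosslinks collagen IV in basement membranes (chromosome 12, 29937608 to 30017658), fell in one series and rose in the other. Set T146 stood at 0.345 CPM and T148, T211 and T231 at 51.7, 52.2 and 38.2. In the numbered series the levels were the other way around, with 24.8 CPM in the numbered knockout set and 0.396 in the numbered WT set. So the knockout set of one series was at the level of the WT set of the other. The log2 changes were -7.08 (SE 0.53, adjusted p = 0.000721) and 5.96 (SE 0.52, adjusted p = 0.00861). Their difference of -13.04 (SE 0.74, adjusted p = 0.000167) was the only one that passed the test of a difference between series (0.00694% of genes, 726 unadjusted). Oocyte Young_Tet1-/-_201_8 again stood apart, at 0.400 CPM against 10.1 to 51.5 in the other oocytes of its set. With the 6 young sets alone, Pxdn was called in neither series nor for their difference.

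Besides these, the T series called 4 genes, of which only E330021D16Rik was still called with the 6 young sets alone. E330021D16Rik (chromosome 6, 136400317 to 136415569) rose to 3154 CPM in T146 from 457, 404 and 410 in the WT sets (log2 change 2.90, SE 0.27, adjusted p = 0.00387). The numbered WT set, however, stood at 3609 CPM, above the numbered knockout set at 1713. Otogl, otogelin-like, a protein of the inner ear's acellular membranes, fell to 0.431 CPM from 9.26, 12.7 and 12.1 (log2 change -4.71, SE 0.57, adjusted p = 0.0308), and both numbered sets stood at the WT level, 8.42 in the numbered knockout set and 8.43 in the numbered WT set. Gm15691 held 117 counts in T146 against 1 in the 3 WT sets, a 156-fold ratio (95% exact counting interval 27.5 to 6213; adjusted p = 0.0497), yet the numbered WT set stood at 5.77 CPM and the numbered knockout set at 3.86. Gm9847 held 2 counts in T146 and stood at 2.39, 2.83 and 2.64 CPM in the WT sets (79.1-fold lower, 21.6 to 658; adjusted p = 0.0497), and at 1.10 CPM in the numbered knockout set against 1.96 in the numbered WT set. For each of the 4, every oocyte of T146 lay outside the range of the T-named WT oocytes. Among all genes tested, 0.312% were so separated higher and 0.222% lower. None of the 4 passed in the numbered series (adjusted p at least 0.597). The call of each of the 4 was lost without WT set T231, where the log2 changes were 2.87, -4.66 and -6.10 for E330021D16Rik, Otogl and Gm9847 (adjusted p = 0.0546, 0.0966 and 0.180), and those of Gm15691 and Gm9847 also without T211 or without Young_Tet1-/-_201_8.

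The numbered series called 5 further genes. Ankrd66, an ankyrin repeat gene, had 55 counts in the numbered knockout set and none in the numbered WT set, at least 38.1-fold higher (computed against 3 counts over the set, adjusted p = 0.0137). H2-T-ps, a pseudogene of the major histocompatibility region whose exons overlap other gene models, stood at 6.62 CPM against 0.191 (log2 change 5.09, SE 0.61, adjusted p = 0.0296), and Tmem222, which encodes a transmembrane protein, at 2.70 against 0.0818 (log2 change 4.98, SE 0.62, adjusted p = 0.0342). All 3 were at or near 0 in the numbered WT set. T146 and the T-named WT sets carried them at 2.82 to 5.56, 10.1 to 19.6 and 6.82 to 14.6 CPM, and oocyte Young_Tet1-/-_201_8 had none. Cox17, the copper chaperone of cytochrome c oxidase, fell to 2.29 CPM from 48.8 (log2 change -4.41, SE 0.59, adjusted p = 0.0472), and the overlapping model Gm21987 fell with it (-4.50 on the log2 scale, SE 0.59, adjusted p = 0.0430). Oocyte Young_WT__246_11 alone held 356 CPM of Cox17, while the median of the numbered WT set was 2.29. Without Young_WT__246_10, Young_WT__246_11 and Young_WT__246_15 the Cox17 change was -0.67 and the Gm21987 change -0.76, and both calls were lost (adjusted p = 1.0 for each). Tmem222 also missed the threshold without them, with a change about as large (4.75, adjusted p = 0.0555). The Cox17 call was also lost with DESeq2's size factors in edgeR. With the 6 young sets alone, none of the numbered calls was kept, those of Pnpla3, Gm49513 and Pxdn included.

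The agreement between series was then taken gene by gene. A gene counted as at least 2-fold higher or lower in both when its fitted change reached 2-fold the same way in each and T146 lay beyond all 3 T-named WT sets. T146 was at least 2-fold higher, and above all WT sets, at 507 genes (3.52% of those tested), and lower at 443 (3.07%). The numbered knockout set was at least 2-fold above the numbered WT set at 837 genes (5.81%) and below it at 1154 (8.0%). Of these, 96 genes were higher in both (0.666%) and 72 lower in both (0.499%). Opposite directions were nearly as frequent, with 79 genes higher in the T series and lower in the numbered one (0.548%) and 65 the reverse (0.451%). The genes higher in both made up 18.9% of the T list and 11.5% of the numbered list, and those lower in both 16.3% and 6.24%. Among genes with a mean of 10 CPM or more the counts were 9 higher and 7 lower in both, against 8 and 7 in opposite directions. Across the 14418 genes, which are not independent replicates, the log2 changes of the 2 series had a Pearson correlation of 0.063 and a Spearman correlation of 0.079, and shared their sign at 52.9%. The shared lists were made mainly of scarce transcripts, with a median of 1.70 CPM over the 6 sets for genes higher in both and 1.53 for genes lower in both, against 9.0 for all genes tested. Among the 96 and 72 genes, 73 and 48 were protein-coding (76% and 66.7%, against 79.8% of all genes tested). Of 87 other genes tested within 10 Mb of Tet1, 1 was higher in both and 0 lower.

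**Figure D2:**
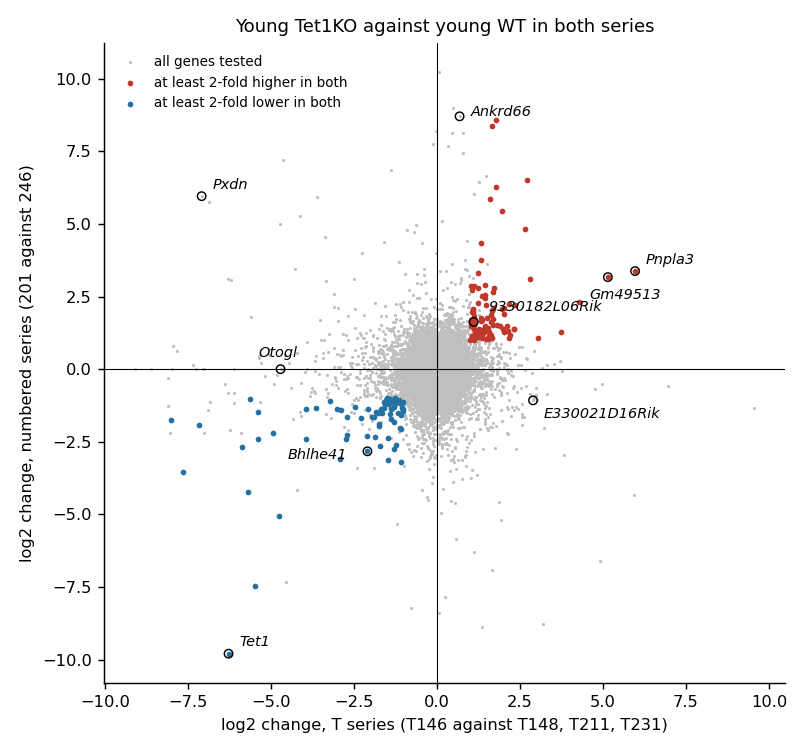
Fitted log2 change of each gene in the T series (horizontal) against the numbered series (vertical), with genes at least 2-fold higher in both in red (96) and lower in both in blue (72). Most points lie around 0 with no shared slope (Pearson 0.063), Pxdn lies in the opposite quadrant, and the position of Tet1 depends on the fit's prior count because the numbered knockout set had no count.

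Outside Tet1, Pnpla3 and Gm49513, none of the shared genes passed the fit over both series. Those nearest to it were Gm13632, 9330182L06Rik and Bhlhe41 (adjusted p = 0.248 each). Gm13632, named after its values were seen, stood at 0.0173 CPM in T146 against 0.427, 1.18 and 1.19, and at 0.116 in the numbered knockout set against 20.99 in the numbered WT set, so the WT sets themselves lay far apart. 9330182L06Rik, a gene model of chromosome 5 (9266118 to 9481825) singled out after its values were seen, stood at 172 CPM in T146 against 70.8, 75.8 and 92.7, and at 166 in the numbered knockout set against 53.8 in the numbered WT set. The knockout sets were alike and lay above all 4 WT sets. Every T146 oocyte (136 to 208 CPM) lay above every T-named WT oocyte (52.4 to 131), and in the numbered series all but Young_Tet1-/-_201_8 (96.5 CPM) lay above the numbered WT set (13.2 to 114). The lowest WT values were those of Young_WT__246_10, Young_WT__246_11 and Young_WT__246_15 (20.1, 23.1 and 13.2 CPM). Without these oocytes the numbered change of 9330182L06Rik went from 1.63 to 1.27 (SE 0.35). Bhlhe41, a transcriptional repressor of the circadian clock (chromosome 6, 145858243 to 145865558, sharing exons with Gm43909), stood at 8.23 CPM in T146 against 22.4, 45.6 and 37.2, and at 3.75 in the numbered knockout set against 26.7 in the numbered WT set. Its log2 changes were -2.09 (SE 0.53) and -2.83 (SE 0.62), and without Young_Tet1-/-_201_8 the second was -3.97 (SE 0.66, adjusted p = 0.0909). Oocytes overlapped in both series, from 2.14 to 20.5 CPM in T146 beside 8.26 to 72.3 in WT, and from 0 to 15.8 in the numbered knockout set beside 9.53 to 47.3 in the numbered WT set.

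Among genes higher in both series with at least 5 CPM in the higher set of each (25 genes), none but Pnpla3 and Gm49513 passed. Mis18a, which licenses centromeres for CENP-A, stood at 53.99 CPM in T146 against 12.5, 15.5 and 13.7, and at 108 in the numbered knockout set against 25.6 in the numbered WT set (log2 changes 1.95 and 2.08, SE 0.54 and 0.74, adjusted p over both = 0.530). All oocytes of the numbered knockout set lay above the numbered WT set (40.6 to 154 against 18.3 to 35.9 CPM), while T146 was uneven, from 10.7 to 165 CPM. Cdc5l, of the PRP19 spliceosome complex, stood at 27.3 CPM against 3.29, 0.404 and 0.631, and at 39.3 against 7.88, with SE of 1.92 and 2.60 around changes of 4.27 and 2.32. Coil, the scaffold protein of Cajal bodies, stood at 31.3 CPM against 12.8, 6.60 and 3.97, and at 52.1 against 14.05. Polr2m, a subunit of RNA polymerase II, stood at 7.20 CPM against 5.85, 0.437 and 2.38, and at 16.3 against 4.83. Cdc5l, Coil and Polr2m varied widely among the WT sets themselves.

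Pigg, an enzyme of glycosylphosphatidylinositol anchors, was steady, at 6.61 CPM in T146 against 1.96, 2.49 and 2.49, and at 5.43 in the numbered knockout set against 1.58 (log2 changes 1.51 and 1.78, SE 0.42 and 0.57, adjusted p over both = 0.530). Sppl3, an intramembrane protease, stood at 9.54 CPM against 7.08, 0.0337 and 4.38, and at 5.64 against 0.273. Adcy2, an adenylyl cyclase, stood at 8.11 CPM against 1.88 in T148 and none in T211 or T231, and at 11.01 against 4.57. Igf1os, an antisense model whose reads were counted without strand, and Gm13361 had changes of 1.46 and 2.13 in the T series and 2.45 and 1.302 in the numbered one.

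The lower side held 9 genes at that level. Fstl1, a secreted follistatin-like glycoprotein, stood at 4.47 CPM in T146 against 10.7, 23.96 and 15.3, and at 5.37 in the numbered knockout set against 16.8 (log2 changes -1.90 and -1.64, SE 0.65 and 0.72). A430078I02Rik stood at 11.9 CPM against 20.5, 33.6 and 33.01, and at 9.21 against 20.6 (-1.28 and -1.16, SE 0.35 and 0.41, adjusted p over both = 0.530). Rpl37, of the large ribosomal subunit, stood at 2.74 CPM against 2.82, 19.7 and 12.996, and at 16.1 against 79.8, so T146 sat at the level of WT set T148. Without the 3 WT oocytes rich in ribosomal protein transcripts its numbered change of -2.31 was -0.71 (SE 0.90), under 2-fold. Myl4, a myosin light chain, AI481877, Gm4735 and Gm26775 had changes between -3.01 and -1.01 in the T series and between -1.67 and -1.15 in the numbered one, and for Myl4, AI481877 and Gm4735 T146 was within 1.3-fold of T148. Without the same 3 oocytes the numbered change of Myl4 went from -1.50 to -0.61 and that of A430078I02Rik from -1.16 to -0.79, both under 2-fold. Without Young_Tet1-/-_201_8 the numbered change of Gm26775 went from -1.15 to -1.95.

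**Figure D3:**
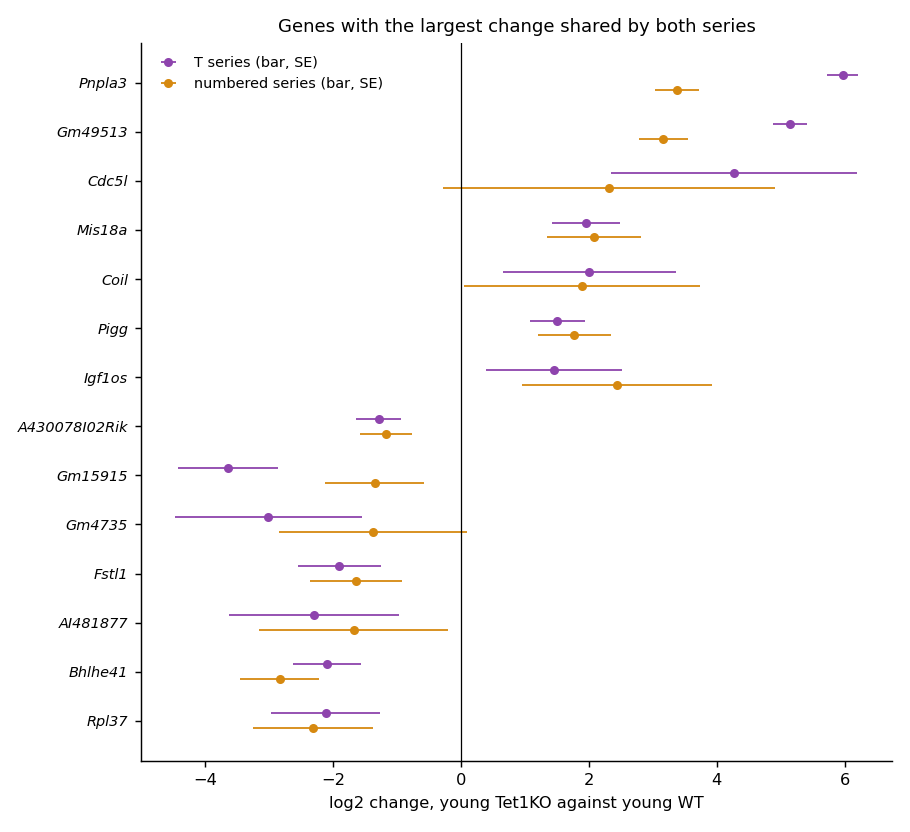
Log2 change with its SE in the T series and the numbered series for the 7 genes higher and 7 lower in both whose smaller change was largest, at 5 CPM or more in the higher set. Bars of Cdc5l and Gm4735 in the numbered series cross 0, while those of Mis18a, Pigg, Bhlhe41, Fstl1 and A430078I02Rik do not.

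At the level of single oocytes, separation was counted where every knockout oocyte lay above or below every WT oocyte of its series. In the T series 45 genes were separated higher (0.312%) and 32 lower (0.222%), and in the numbered series 34 higher (0.236%) and 44 lower (0.305%). None was separated higher in both series (0.00%) and 1 lower in both (0.00694%), while 3 were separated in opposite directions (0.0208%). T146 oocytes were sequenced more deeply (5500057 to 12472307 counts) than the T-named WT oocytes (2354503 to 5044746), and the part of depth in these counts was not tested. The gene separated lower in both was Gm15915 (chromosome 10, 93674218 to 93683322), at 1.21 CPM in T146 against 20.1, 5.55 and 19.6, and at 5.52 in the numbered knockout set against 14.05 in the numbered WT set. The numbered knockout set there stood at the level of WT set T211. Without Young_Tet1-/-_201_8 the separated genes numbered 1 higher in both (9330182L06Rik) and 2 lower in both (Gm15915 and Gm5106), with 6 in opposite directions.

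The 3 genes separated in opposite directions are named because of these values. Agtpbp1, a carboxypeptidase that trims glutamates from tubulin, stood at 446 CPM in T146 against 254, 142 and 136, and at 211.3 in the numbered knockout set against 333 in the numbered WT set. Ncs1, a neuronal calcium sensor, stood at 1.21 CPM against 6.74, 5.11 and 5.57, and at 3.14 against 0.191. Rslcan18, a KRAB zinc finger gene that shares exons with neighbouring models, stood at 1.85 CPM against 6.14, 12.9 and 11.5, and at 3.66 against 0.859. For none of the 3 did the difference between series pass the test (adjusted p = 0.806, 0.425 and 0.859).

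**Figure D4:**
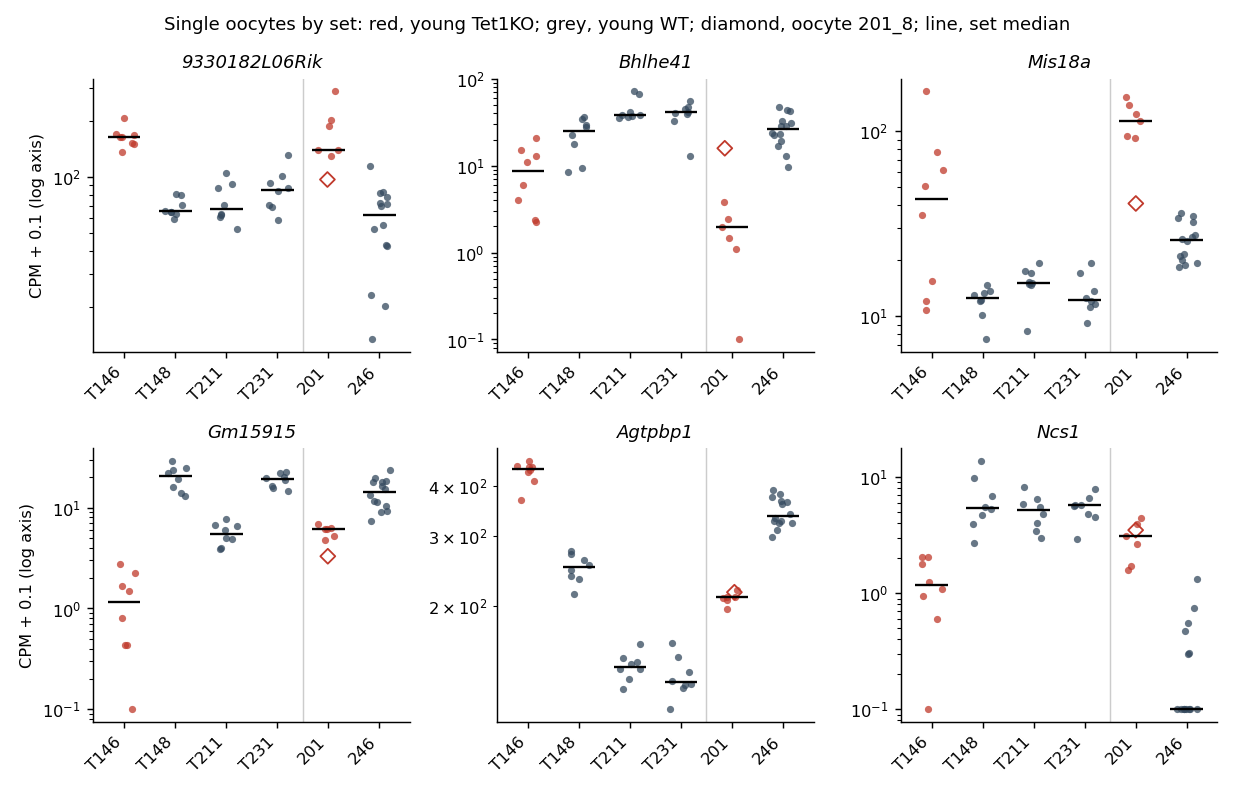
CPM of single oocytes (0.1 added, log axis) by set, with lines at set medians and oocyte Young_Tet1-/-_201_8 as a diamond, for 4 genes that differ the same way in both series and 2, Agtpbp1 and Ncs1, that differ in opposite directions. For Gm15915, the numbered knockout set is below the numbered WT set but at the level of T211.

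Oocyte Young_Tet1-/-_201_8 carried other levels than the rest of the numbered knockout set at 19 genes, of which 3 are named here after their values were seen. Dph6, an enzyme of diphthamide synthesis, stood at 357 CPM in it against 4.68 to 15.2 in the other 6, where T146 ran from 236 to 367 and the numbered WT set from 332 to 740. Junb, a component of the AP-1 transcription factor, stood at 0.400 CPM against 20.6 to 31.7 in the other 6. It ran from 0 to 1.53 in the numbered WT set, 0.658 to 1.81 in T146 and 18.8 to 63.9 in the T-named WT oocytes. Tcstv1, a gene of the early embryo's genome activation, stood at 33.4 CPM against at most 0.813. At 10 of the 19 genes Young_Tet1-/-_201_8 lay inside the range of the numbered WT set, at 6 inside that of T146 and at 6 inside that of the T-named WT oocytes.

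Gene groups tied to TET1 and to the oocyte's own programme had medians near that of all genes in both series. Tet1 and Pnpla3 were the only members of the 18 lists called over both series. Of the DNA methylation and demethylation genes, 30 were tested and Tet1 was the 1 called. Their median log2 change was -0.03 in the T series and -0.09 in the numbered one, beside -0.01 and 0.00 for all genes. Gadd45b, a gene linked to active demethylation, stood at 0.449 CPM in T146 against 0.640, 0.337 and 0.149, and at 3.54 in the numbered knockout set against 0.341 in the numbered WT set, neither passing. Partners of the TET1 protein (16 tested), imprinted genes (26) and germline genes silenced by promoter methylation in the soma (26) had medians between -0.06 and 0.12 in both series, with no call. Igf2, the imprinted growth factor, stood at 0.104 CPM in T146 against 0.683, 1.18 and 0.631, and at 1.19 in the numbered knockout set against 1.13 in the numbered WT set. Dazl, a germ-cell RNA-binding protein, stood at 986 CPM against 1455, 1548 and 1592, and at 882 against 1212 (log2 change over both -0.56, SE 0.24, adjusted p = 0.967). T146 lay below all WT sets for Dazl, as the numbered knockout set lay below the numbered WT set. Oocytes overlapped in both series, from 590 to 1508 CPM in T146 beside 1176 to 1772 in the T-named WT sets. Oocyte Young_Tet1-/-_201_2 held 22.4 CPM, and the other oocytes of its set ran from 669 to 1565 beside 909 to 1880 in the numbered WT set. Tex15, of meiotic recombination and piRNA silencing, stood at 46.8 CPM against 21.1, 47.1 and 32.9, and at 3.43 against 0.655, so both numbered sets lay below all T-named sets.

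Meiotic genes, the best known TET1-dependent group in female germ cells, showed no common direction. Of 24 tested recombination and synapsis genes 13 were lower in T146 and 13 in the numbered knockout set, with 0 called and medians of -0.07 and -0.02. Sycp1, of the synaptonemal complex, stood at 7.92 CPM against 8.53, 17.2 and 16.4, and at 12.6 against 14.3. Syce2, of its central element, stood at 140 CPM against 172, 181 and 197, and at 91.7 against 135. Hormad2, of the chromosome axis, was at least 2-fold lower in both but at 0.845 CPM or less in the knockout sets. Among 42 spindle checkpoint, kinetochore and cohesin genes none was called. Aurkb, of the chromosomal passenger complex, stood at 37.01 CPM against 28.2, 18.4 and 18.1, and at 53.6 against 25.6 (log2 change over both 0.89, SE 0.29, adjusted p = 0.967). Aurkc, its germ-cell counterpart, stood at 156 CPM in T146, near T148 at 143 and below T211 and T231 at 823 and 815, and the numbered sets stood at 75.7 against 136.8.

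For oocyte identity and maternal effect genes (35 tested), maternal RNA decay and translation control (41), histone methylation enzymes and Polycomb (38), piRNA and transposon silencing (25), proteasome subunits (33), early genome activation (10), DNA damage and p53 (26), stress and redox (28) and lipid droplet genes (24), calls over both series numbered 0 except for Pnpla3. Medians of these 9 lists lay between -0.25 and 0.28. Oosp1, an oocyte-secreted protein, stood at 1913 CPM against 2127, 2363 and 2620, and at 2298 against 3708. Prkdc, the catalytic subunit of DNA-dependent protein kinase, stood at 12.0 CPM against 11.3, 7.30 and 9.39, and at 33.9 against 11.4. Sod1, superoxide dismutase, stood at 36.9 CPM against 43.9, 52.6 and 54.9, and at 23.4 against 86.7. Without Young_WT__246_10, Young_WT__246_11 and Young_WT__246_15 the numbered changes of Sod1 and Oosp1 went from -1.89 to -0.75 and from -0.69 to -0.12. Psmb5, a proteasome subunit, and Hmox1, haem oxygenase, were at least 2-fold lower and higher in both, at 3.16 CPM or less and 1.25 CPM or less in every set. The numbered change of Psmb5 went from -2.06 to -1.14 without those 3 oocytes.

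Lists of ribosomal and mitochondrial genes had medians below that of all genes chiefly in the numbered series. Of 80 cytosolic ribosomal protein genes, 44 were at least 2-fold lower in the numbered knockout set and 3 in T146, with medians of -1.16 and -0.06. Without the 3 ribosome-rich oocytes of the numbered WT set the numbered median was 0.18. Nuclear respiratory chain subunits (74 tested) had medians of 0.06 in the T series and -0.59 in the numbered one, which became 0.07 without those oocytes. Of the 13 proteins encoded by mitochondrial DNA, all 13 transcripts stood lower in the numbered knockout set and 11 in T146, with medians of -0.98 and -0.20, and the numbered median was -0.55 without those oocytes. No member of these 3 lists was called over both series. Complex I subunit mt-Nd1 stood at 1484.9 CPM in T146 against 1671, 2219 and 1785, and at 863 in the numbered knockout set against 1705. By set medians, mitochondrial genes took 1.06% of counts in T146 against 1.26% ± 0.184 (SD, n = 3 sets), and 0.385% in the numbered knockout set against 0.927% in the numbered WT set. An exact permutation of the sets within each series gave p = 0.25 (two-sided), and these 8 arrangements allow no p below 0.125. Genes detected per oocyte (set medians) were 18213 in T146 against 16545 ± 424 (SD, n = 3) and 17516 in the numbered knockout set against 17458 (exact p = 0.125, the smallest possible). Median total counts were 5985500 in T146 against 2703700, 3755200 and 3118200 in T148, T211 and T231. In the numbered series they were 4792100 in the knockout set against 5159900 in the WT set. The part of depth in the genes detected was not tested. Ribosomal protein shares (exact p = 0.125), total counts (p = 0.25) and the median correlation between oocytes of a set (p = 0.25) were tested the same way, and none of the 5 measures can pass in this design.

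**Figure D5:**
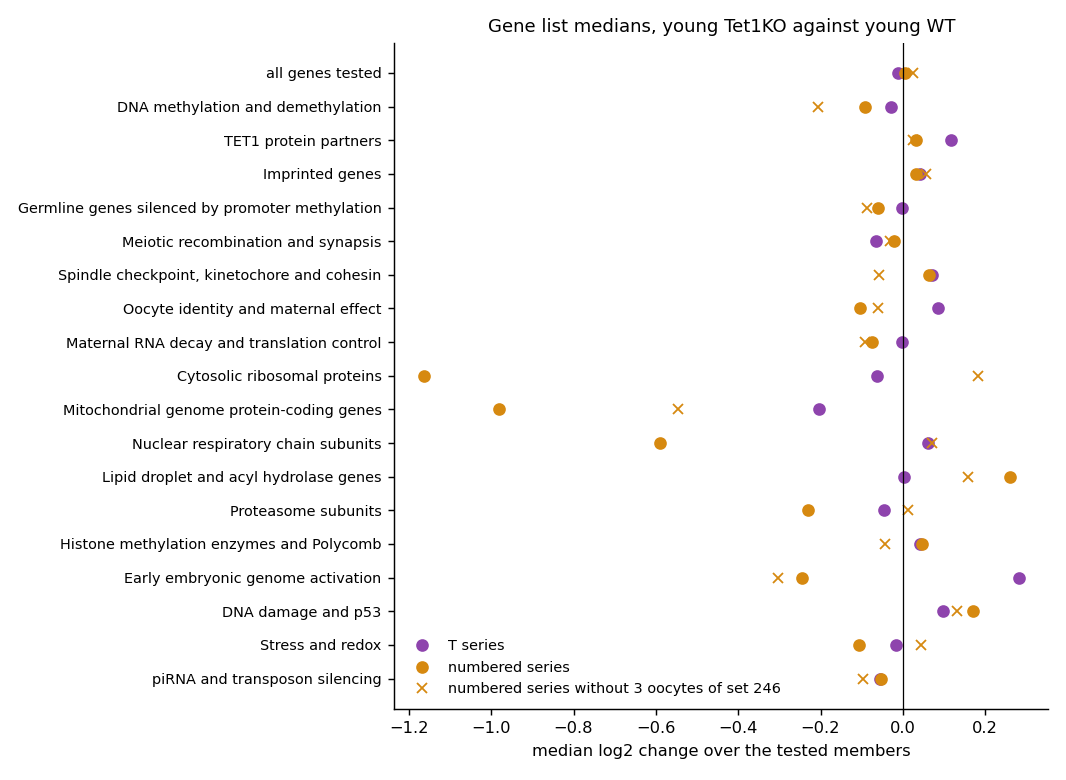
Median log2 change over the tested members of each gene list, cell type markers left out. Points give the T series, the numbered series and that series without the 3 oocytes of the numbered WT set rich in ribosomal protein transcripts. With all oocytes, medians lie between -0.25 and 0.28 in both series, except for ribosomal, mitochondrial and respiratory chain genes in the numbered series. Of these, the mitochondrial list stays below 0 without the 3 WT oocytes (-0.55).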

How the data were processed

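RNA of single oocytes was sequenced, and 94 oocytes (53 of them in this comparison) were matched by name to a count column. Another 39 count columns matched no label, 39 samples had no column of their own, and neither was used. The authors deposited raw gene counts in 2 tables. Per its header, the table of the T series was made with featureCounts 1.6.2 on GENCODE mouse release 17, at a mapping quality of 30 or more. Counting was without strand, with multi-mapped reads and reads in overlapping genes counted for each gene. The table of the numbered series lists the same gene models, and its settings were taken to be the same. Values of overlapping or near-identical genes (pseudogenes such as H2-T-ps) are therefore uncertain. Alignment tools and build named in the submitters' processing notes are HISAT2, SAMtools and mm10. The tables hold 53715 genes, 95 of them without a symbol.

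Counts were summed per set, and all 13 oocyte sets of the series were fitted in R 4.3.3 with edgeR 4.0.16 (TMM, quasi-likelihood test, Benjamini-Hochberg, threshold 0.05) on genes with a CPM of 1 or more in 2 sets or more. The fit over both series had a term for the series (6 residual degrees of freedom), and the fit within series 1 mean per group and series (5). The other groups in the fits were young Tet2-/- oocytes and oocytes titled old, of WT, Tet1-/- and Tet2-/- females. Their sets also entered the estimate of the spread. Lone sets are assumed to vary like the sets of other groups. SE was derived from the log2 change and the F statistic. Oocyte CPM are TMM-scaled, and CPM sums over markers use total counts. Intervals (95%) and bounds cover counting error only. DESeq2 1.42.0, limma 3.58.1, other scaling, filters and left-out sets or oocytes were tried. On data simulated from these genes with 200 changed, the fit over both series called 11.9% of 2-fold, 79.1% of 4-fold and 98.5% of 16-fold changes, the T series 5.97%, 52.2% and 100%, and the numbered series 0%, 23.9% and 90.9%. False calls in these runs numbered 6, 3 and 9. The changed genes were drawn from those at 5 CPM or more over all sets, so the rates do not cover scarcer transcripts. Set sums were simulated without a difference between series and without single oocytes that stand apart. With 200 genes changed at once, the Benjamini-Hochberg threshold was also easier to reach than where few genes pass, as in the real fits. The rates may therefore be too high for these data.

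The comparison, the gene lists and the tests were chosen with earlier results of these data known. The text names the Tet genes, all called genes (up to 6 or 10 per direction), up to 12 genes per direction with the largest smaller change of the 2 series at 5 CPM or more, genes separated in both series, and up to 4 members per list. Promoter sequences are from RefSeq. A gene that the rule names is not reported here.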

Additional observations from a re-analysis of the deposited data

Results flagged for a closer look

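Within the young WT sets, 39 values were screened for a set far from the other 3, and chance alone flags about 1 in 20. The numbered WT set lay far above the T-named sets for Gm15691 (5.77 CPM), E330021D16Rik (3609 CPM), Gm21987 (48.8 CPM) and Cox17 (48.8 CPM). T148 lay just below the other WT sets for Pnpla3 (1.71 CPM), and T211 above them for Igf1os (7.64 CPM). Among the oocytes of a set, Young_Tet1-/-_201_8 lay far above the rest for Pnpla3 (125 CPM), and 1 oocyte of T148 lay above its set for the same gene at 3.80 CPM. The Pxdn change differed between the series by -13.04 on the log2 scale, the single gene for which the test of that difference passed.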

How the results depend on the processing

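Tet1 kept its direction under all 14 alternatives over both series, and Pnpla3 did too. Calls numbered 3 over both series, 7 in the T series, 8 in the numbered series and 1 for their difference. DESeq2 gave 30, 45, 120 and 57, and no filter on low counts (33500 genes) 252, 307, 168 and 202. With the 6 young sets alone edgeR gave 0, 3, 0 and 0 (782, 566, 1421 and 1076 at an unadjusted p under 0.05). Without oocyte Young_Tet1-/-_201_8 the fit over both series called 1 and the difference 8, and without oocytes Young_WT__246_10, Young_WT__246_11 and Young_WT__246_15 the numbered series called 5. Leaving out 1 set at a time gave 3 to 8 calls over both series (8 without T146, 6 without T148, 6 without the numbered knockout set, 5 without the numbered WT set) and 3 to 35 in the T series (35 without T148, 3 without T231). Genes at least 2-fold higher and lower in both series, 0.666% and 0.499% of the 14418 tested, came to 2.29% and 2.06% at 1.5-fold, 0.0624% and 0.0971% at 4-fold, and 0.130% and 0.101% of the 6923 genes with a mean of 10 CPM or more. From oocyte medians 0.201% were lower. Leaving out a T-named WT set gave 0.624% to 1.03% higher and 0.465% to 0.888% lower, the highest shares without T148. Separated oocytes in both series numbered 0 to 3 higher (3 without T211) and 1 to 5 lower (5 without T148, 2 without T231) when a WT set was left out, and 1 higher and 2 lower without Young_Tet1-/-_201_8. The Tet2 change in the numbered series turned to 0.0025 without the filter. Of 517 values of single genes under these alternatives, 37 lost a call and 26 gained one. The causes were not tested. Depth limits the scarce transcripts, Tet1 among them.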
